A study of Arabidopsis thaliana with 12 samples.

Results

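The genes described here encode the enzymes that lead from glutamyl-tRNA to chlorophyll, heme and the phytochrome chromophore, together with the regulators GUN4 and FLU. They are 30 nuclear genes of the 28775 genes in the count files, listed by gene identifier for their place in the pathway, with earlier results of these data known. They were measured in whole rosettes of Arabidopsis thaliana of the genotype Col-0. All plants were 3 weeks old when they were moved to low light, 8 µmol photons m-2 s-1, for 10 days. Plants of the high-light groups were then given 800 µmol photons m-2 s-1 for 10 min, and plants of the low-light groups stayed where they were. Ribosome-protected fragments (RPF), the pieces of mRNA that lie inside ribosomes and survive RNase digestion, and total RNA were sequenced from both. The 12 libraries fall into 4 groups of 3: RPF in high light, RPF in low light, total RNA in high light and total RNA in low light.

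Tetrapyrroles are built in the plastid by enzymes that are encoded in the nucleus. Glutamyl-tRNA is reduced and rearranged to 5-aminolevulinic acid (ALA), the precursor of every later product, and this first step is where most of the control of the pathway is placed. ALA is condensed and oxidised to protoporphyrin, where the pathway divides: insertion of magnesium leads to chlorophyll, and insertion of iron leads to heme and the bilins. Free intermediates generate singlet oxygen in light, so that supply and use of intermediates are held in balance in green leaves.

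The total count of a library was between 1563427 and 17312840 in RPF and between 2592499 and 16660558 in total RNA. The RPF libraries numbered 1 stood apart: protein-coding genes took 12.2% of the counts in high light and 14.0% in low light, against 65.0% to 81.8% in the other 4 RPF libraries. Protein-coding counts per library were between 1162389 and 2119227 in RPF and between 2438332 and 16053563 in total RNA. The 30 genes together had between 7074 and 11203 counts per RPF library and between 8360 and 52519 per total RNA library, and none of them was at 0 in any library. The 5 rosette marker genes took 2.32% to 4.05% of nuclear protein-coding counts in RPF and 4.57% to 5.35% in total RNA, whereas 4 or 5 of the 5 root markers and 3 or 4 of the 4 seed markers were at 0 in each library. Of 4 flower markers, 3 or 4 were at 0 in each RPF library but only 1 to 3 in each total RNA library, where the 4 together took at most 0.000361% of nuclear protein-coding counts. Replicates carry the numbers 1 to 3 in the labels, and per the file headers the 4 libraries of a number carry the same experiment name. Values per library are listed below in the order of these numbers, as CPM, counts per 1000000 counts, scaled to normalised library sizes within RPF or within total RNA.

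Reads of the pathway were dominated by a few late enzymes. CHLH, the large subunit of magnesium chelatase, CHLP, the geranylgeranyl reductase that makes the phytyl tail, PORB, a light-dependent protochlorophyllide oxidoreductase, and CRD1, a subunit of the cyclase that closes the fifth ring, took 61.9% of the summed CPM of the 30 genes in RPF in high light and 62.1% in RPF in low light. Their share was 61.2% in total RNA in high light and 64.0% in total RNA in low light. Per kb of gene span, the RPF level in high light was 432 ± 50.7 CPM for PORB, 430 ± 137 for CHLP, 387 ± 102 for CRD1 and 233 ± 76.2 for CHLH (SD, n = 3). The next gene in that order, CHLI1, had 94.0 ± 4.21 CPM per kb. At the low end stood HEMD, with 3.94 CPM per kb, and HY2, with 1.82 CPM per kb, in the same group. These levels are per kb of the whole gene, introns included, because the authors' counts cover the whole gene, and they understate genes with long introns.

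**Figure D1:**
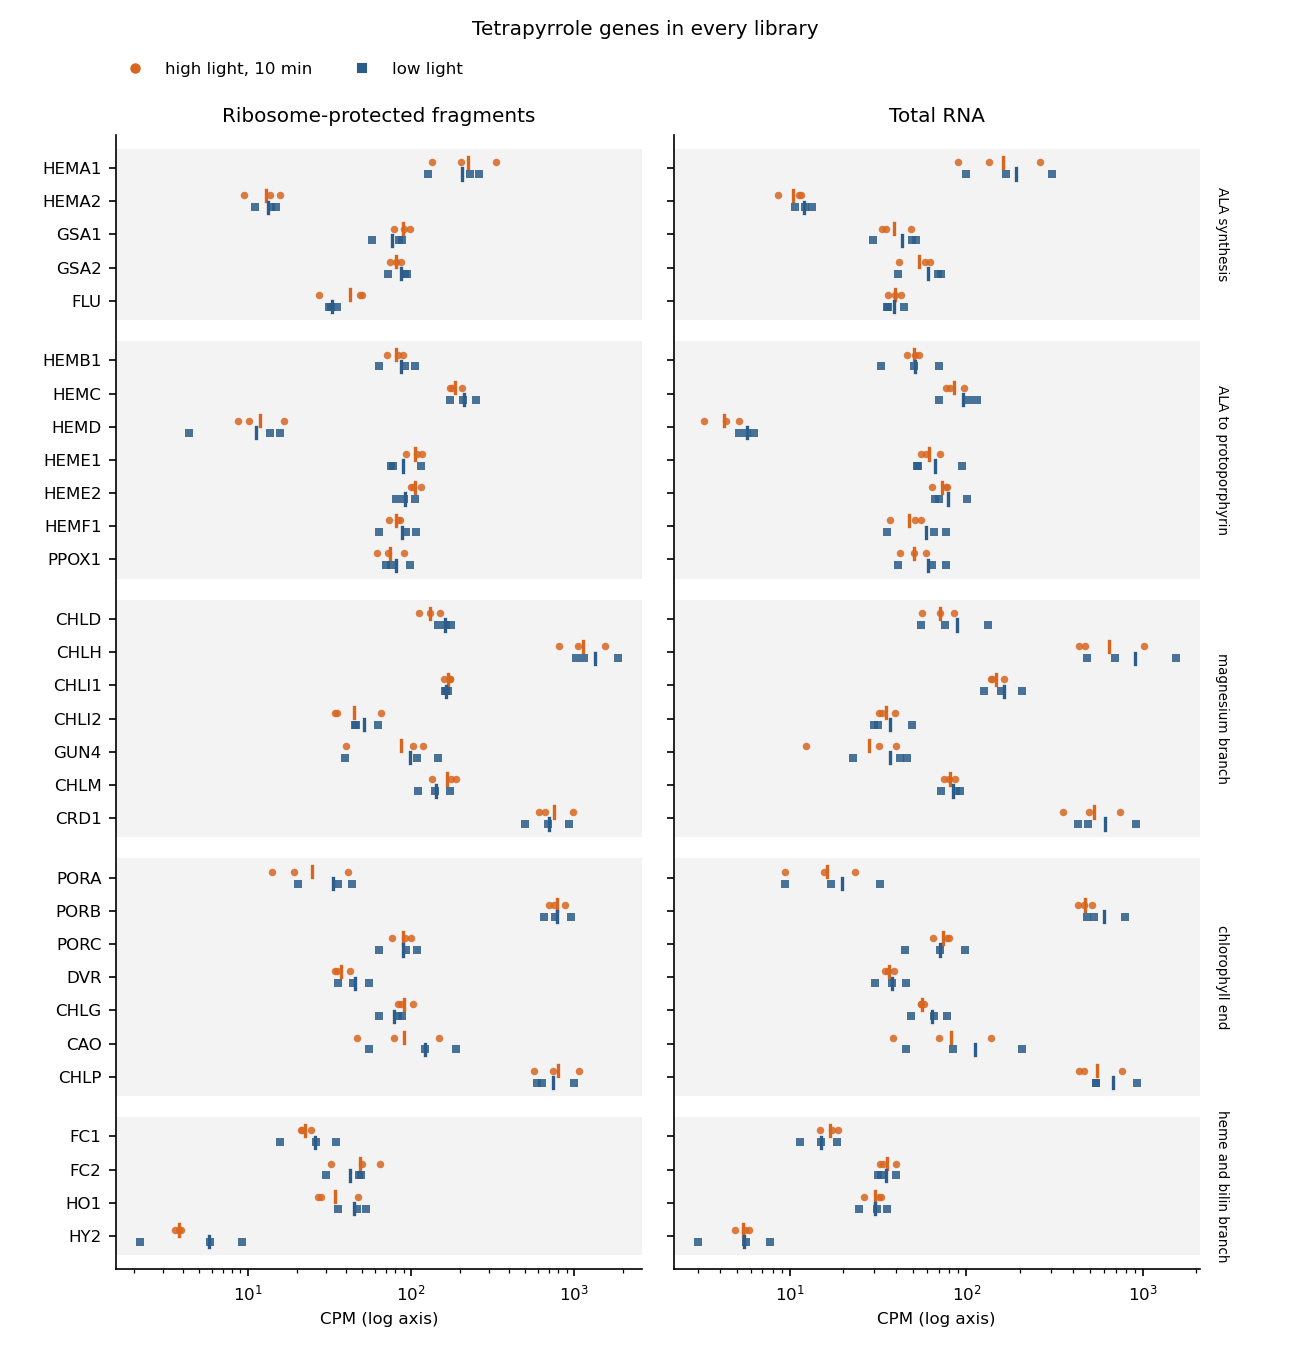
CPM of each gene (log axis) in RPF (left panel) and total RNA (right panel); circles are the 3 high-light libraries, squares the 3 low-light libraries, and vertical bars the group means. The high-light and low-light ranges of a gene overlap, except for HEMD in total RNA, and CHLH, CRD1, PORB and CHLP lie furthest to the right in both panels.

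The first question was whether 10 min of high light altered the ribosome footprints of these genes. None of the 29 genes that passed the filter on low counts passed the test in RPF, and HY2 was not tested there (edgeR quasi-likelihood test, Benjamini-Hochberg adjusted p under 0.05 over all genes tested). The background was small as well, with 0.223% of 10759 genes called. At an unadjusted p under 0.05 there were 0 of the 29, beside 3.35% of all genes, and DESeq2 and limma-voom also called 0. The log2 change was positive for 12 genes and negative for 17, with a median of -0.04 beside -0.003 for all genes tested, and it ran from -0.46 for PORA to 0.35 for FLU. For 25 of the 29 genes the 95% interval of the change lay within 2-fold either way, GUN4, PORA, CAO and HO1 being the exceptions. Without low-light library 3 the median change was 0.06, with 20 genes positive. Without high-light library 3 it was -0.16, with 22 genes negative. With the replicate number as a block in the model, again 0 genes were called, with 1.82% of all genes called, and the intervals of all 29 lay within 2-fold. In that model CHLD, CHLH, PORA, CAO and HO1 had negative changes at an unadjusted p under 0.05, a share of 5 in 29 beside 10.2% of all genes, and the smallest adjusted p was 0.256 for CAO. The 95% intervals of these 5 genes in that model lay below 0. Intervals of single genes given below are from the fit without the block, unless the block is named.

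In total RNA, likewise, none of the 30 genes passed, with 0.236% of 15701 genes called by the same test. The unadjusted p was under 0.05 for 0 of the 30, beside 2.36% of all genes, and DESeq2 and limma-voom called 0. The change was negative for 25 genes and positive for 5, with a median log2 change of -0.17 beside -0.01 for all genes, and it ran from -0.50 for CHLH to 0.21 for FC1. Without low-light library 3, which leaves high-light library 3 without its partner, the median was 0.04 and 17 genes were positive. With each of the other 5 libraries left out the median stayed negative, and with the replicate number as a block it was -0.15 with 24 genes negative. The 95% interval lay within 2-fold either way for 20 of 30 genes, and for 29 of 30 with the replicate number as a block, HEMD being the exception. With that block 0 genes were called, with 0.828% of all genes called, and 2 of the 30, GUN4 and CAO, had an unadjusted p under 0.05, beside 7.19% of all genes. Since whole rosettes were used, fewer cells of a type and less RNA per cell cannot be told apart.

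No gene of the 29 had light groups that did not overlap in RPF, where 4.63% of all genes lay wholly above their low-light group and 4.47% wholly below it. In total RNA 0 of the 30 lay wholly above, beside 3.61% of all genes.

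As a share of all nuclear protein-coding counts, the 30 genes held 0.821%, 1.13% and 1.31% in RPF in high light, against 0.883%, 1.17% and 1.43% in RPF in low light. In total RNA they held 0.882%, 0.952% and 1.35% in high light, against 1.00%, 1.01% and 1.69% in low light. The high-light share was below the low-light share of the same number in 3 of 3 pairs in both kinds of library, but the groups overlap, and libraries of number 3 hold the highest shares under both lights.

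**Figure D2:**
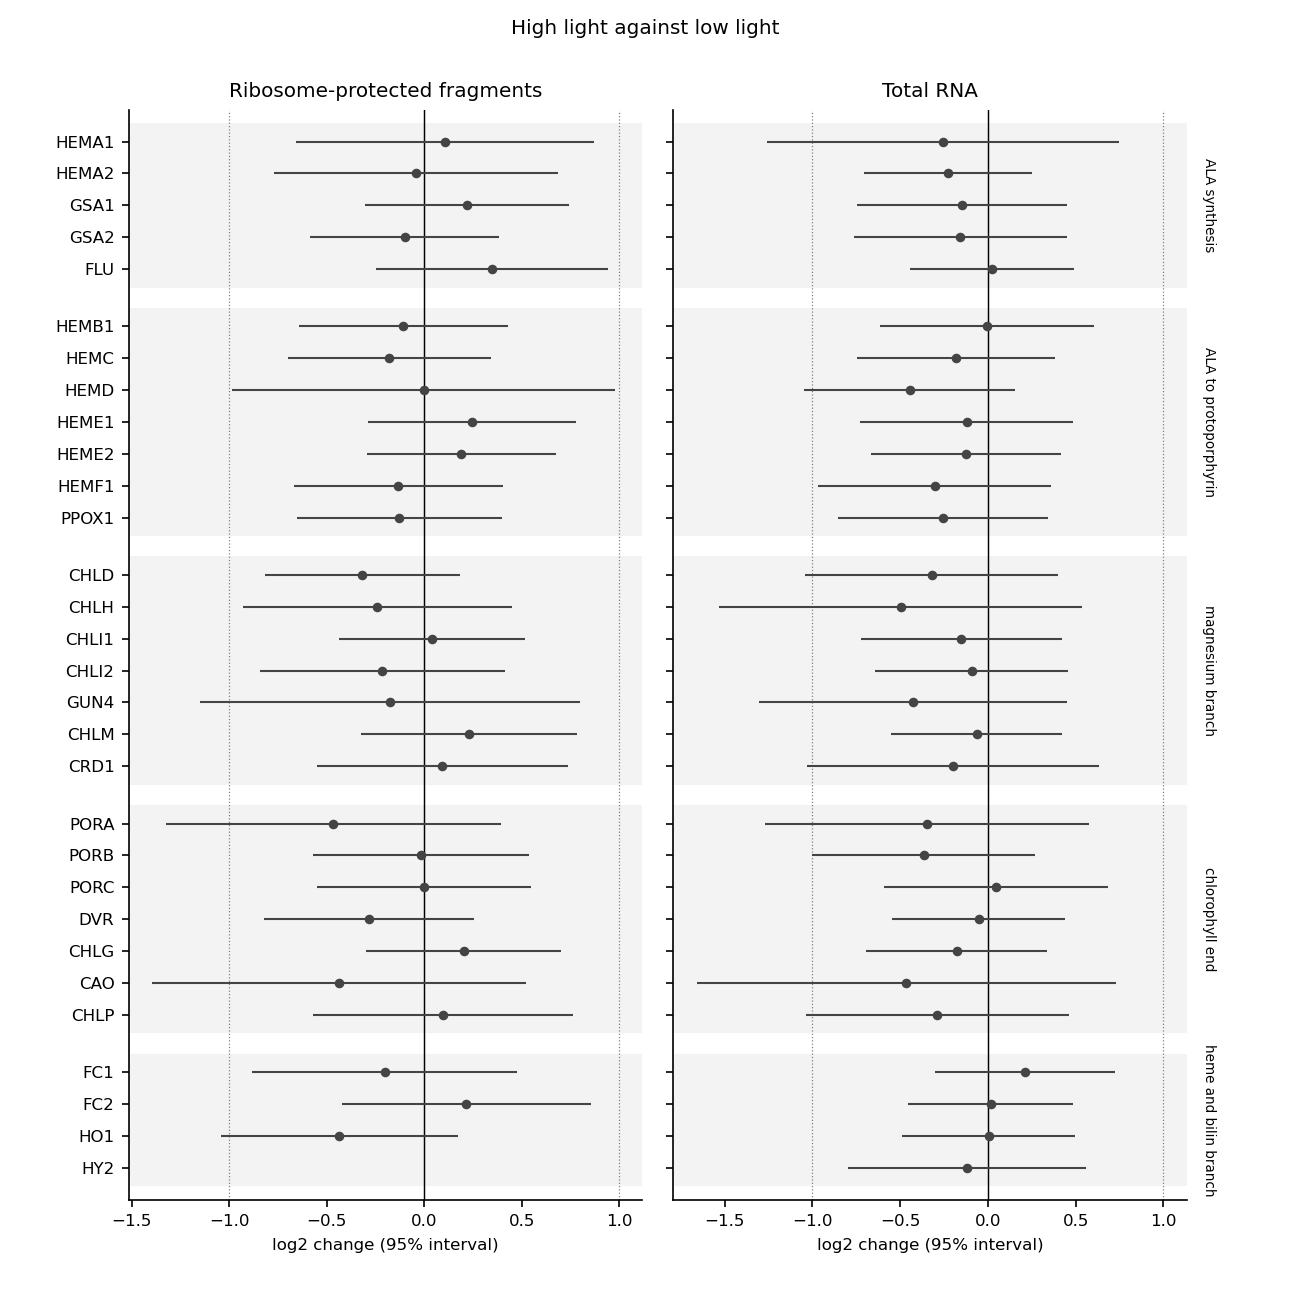
Log2 change of high light against low light with its 95% interval for each gene, in RPF (left panel, HY2 not tested) and total RNA (right panel); dotted lines mark 2-fold either way. The fit is the one without the replicate block, and every interval in it contains 0. In total RNA 25 of the 30 points lie left of 0.

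ALA synthesis opens with glutamyl-tRNA reductase, which HEMA1 and HEMA2 encode. HEMA1 (AT1G58290, chromosome 1, bases 21623726 to 21626200, minus strand) had 134, 201 and 331 CPM in RPF in high light, against 126, 231 and 261 CPM in low light. In total RNA it had 89.5, 133 and 259 CPM in high light, against 99.5, 168 and 306 CPM in low light. The groups overlap in both kinds of library, and number 1 is the lowest of its group in all 4. HEMA2, the isoform better known from roots, was far lower, with 15.7, 9.53 and 13.7 CPM in RPF in high light, against 14.9, 13.8 and 11.1 CPM in low light. Per kb, HEMA1 stood 18.6 ± 8.55 times above HEMA2 in RPF in high light and 16.8 ± 7.80 times in RPF in low light (SD, n = 3).

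GSA1 and GSA2 encode glutamate-1-semialdehyde aminotransferase, which completes ALA. GSA1 (AT5G63570, chromosome 5, bases 25451875 to 25453841, plus strand) had 99.0, 78.6 and 91.1 CPM in RPF in high light, against 87.7, 57.5 and 84.8 CPM in low light. Its high-light value was the higher of the pair for every number, although the groups overlap, and the log2 change was 0.22 (95% interval -0.30 to 0.74). FLU, a protein that represses glutamyl-tRNA reductase in the dark, had 50.3, 27.4 and 49.0 CPM in RPF in high light, against 32.5, 31.3 and 35.2 CPM in low light. Library 2 in high light was the lowest of the 6, so that the largest positive change among the 29 genes, 0.35 (interval -0.24 to 0.94), came from numbers 1 and 3. In total RNA, FLU had 39.4, 42.7 and 36.0 CPM in high light, against 36.0, 35.4 and 44.5 CPM in low light.

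From ALA to protoporphyrin the pathway runs through ALA dehydratase (HEMB1), porphobilinogen deaminase (HEMC), uroporphyrinogen III synthase (HEMD), uroporphyrinogen III decarboxylase (HEME1 and HEME2), coproporphyrinogen III oxidase (HEMF1) and protoporphyrinogen oxidase (PPOX1). HEMC, the most abundant of these 7 in reads, had 206, 175 and 178 CPM in RPF in high light, against 208, 174 and 250 CPM in low light. HEMD (AT2G26540, chromosome 2, bases 11287365 to 11290360, minus strand) was the scarcest, with 8.66, 10.1 and 16.7 CPM in RPF in high light, against 13.6, 4.37 and 15.7 CPM in low light. In total RNA, HEMD had 5.13, 3.26 and 4.32 CPM in high light, against 5.15, 5.74 and 6.27 CPM in low light. It was the 1 gene of 30 whose light groups did not overlap in total RNA, by a margin of 5.13 to 5.15 CPM, and 3.15% of all genes lay below their low-light group in this way. Its log2 change there was -0.45 (interval -1.05 to 0.15), the smallest unadjusted p of the 30 at 0.128 and an adjusted p of 1.00 in edgeR.

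HEME1 and HEME2 were above their low-light partner in 3 of 3 pairs in RPF. HEME1 had 93.6, 108 and 118 CPM in high light, against 75.9, 77.9 and 115 CPM in low light, and HEME2 had 99.6, 102 and 115 CPM in high light, against 80.7, 91.0 and 106 CPM in low light. Their log2 changes were 0.25 and 0.19, with intervals that contain 0. In RPF 5 genes in all were higher in 3 of 3 pairs (GSA1, HEME1, HEME2, CHLM and FC2), beside 16.2% of all genes, and 7 were lower in 3 of 3 (PPOX1, CHLD, CHLH, PORA, DVR, CAO and HO1), beside 15.1%. In total RNA 0 genes were higher in 3 of 3 pairs, beside 15.5% of all genes, and 8 were lower (HEMA1, HEMD, CHLH, GUN4, PORA, PORB, CAO and CHLP), beside 14.7%. CHLH, PORA and CAO are the 3 genes that were lower in 3 of 3 pairs in both kinds of library, none of them past the test in either. The share of all genes lower in both kinds was not computed, so this count has no background.

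The magnesium branch begins with magnesium chelatase, built from the subunits CHLH, CHLD and CHLI. CHLH (AT5G13630, chromosome 5, bases 4387334 to 4392227, minus strand), which binds the porphyrin, had 811, 1059 and 1544 CPM in RPF in high light, against 1021, 1145 and 1862 CPM in low light. In total RNA it had 471, 436 and 1014 CPM in high light, against 698, 481 and 1532 CPM in low light. Every high-light library is below the low-light library of its number, yet library 3 in high light exceeds libraries 1 and 2 in low light in both kinds. The log2 change was -0.24 in RPF (interval -0.93 to 0.45) and -0.50 in total RNA (interval -1.53 to 0.54). With the block, the interval in RPF was -0.47 to -0.003 (adjusted p = 0.480 in edgeR).

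CHLD, the subunit that joins CHLH to the ATPase subunit, had 113, 130 and 150 CPM in RPF in high light, against 164, 147 and 177 CPM in low light. Only library 3 in high light overlaps the low-light range, and the log2 change was -0.32 (interval -0.82 to 0.18). With the block, the interval was -0.62 to -0.03 (adjusted p = 0.427 in edgeR). CHLI1, the main ATPase subunit, had a log2 change of 0.04 in RPF (interval -0.43 to 0.52). CHLI2, its second copy, had 34.1, 35.1 and 65.6 CPM in RPF in high light, against 46.0, 45.1 and 62.6 CPM in low light. GUN4, which binds porphyrin and stimulates the chelatase, had 40.1, 103 and 118 CPM in RPF in high light, against 39.5, 109 and 146 CPM in low light. In total RNA GUN4 had 12.4, 32.1 and 39.8 CPM in high light, against 22.7, 42.1 and 46.3 CPM in low light. Its low-light value was the higher of the pair for every number in total RNA (log2 change -0.43, interval -1.31 to 0.45), while in RPF the pair numbered 1 was nearly level. CHLM, the methyltransferase that follows, and CRD1 had log2 changes of 0.23 and 0.09 in RPF and of -0.06 and -0.20 in total RNA.

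At the chlorophyll end, protochlorophyllide is reduced in light by PORA, PORB and PORC. PORA, the form best known from etiolated seedlings, had 14.1, 19.1 and 41.2 CPM in RPF in high light, against 20.2, 35.7 and 43.7 CPM in low light. PORB had 703, 756 and 882 CPM in RPF in high light, against 650, 768 and 951 CPM in low light. In total RNA, PORB had 426, 462 and 512 CPM in high light, against 530, 480 and 794 CPM in low light, and its log2 change was -0.37 (interval -1.00 to 0.27). Per kb, PORB exceeded PORA 38.9 ± 15.2 times in RPF in high light and 26.5 ± 6.43 times in RPF in low light (SD, n = 3), with ranges that overlap.

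CAO (AT1G44446, chromosome 1, bases 16848359 to 16851224, minus strand), the oxygenase that makes chlorophyll b, had 46.5, 78.6 and 148 CPM in RPF in high light, against 55.3, 122 and 189 CPM in low light. In total RNA it had 38.1, 70.3 and 137 CPM in high light, against 45.5, 84.5 and 206 CPM in low light. Its groups overlap widely, since the values of one light span more than 2-fold. Without the replicate block, its log2 changes of -0.43 in RPF and -0.46 in total RNA have intervals that contain 0. With the block, its change in RPF was -0.42 (interval -0.74 to -0.09, adjusted p = 0.256 in edgeR). CHLP had 565, 747 and 1065 CPM in RPF in high light, against 588, 636 and 996 CPM in low light. DVR, the divinyl reductase, and CHLG, the chlorophyll synthase that attaches the tail, had log2 changes of -0.28 and 0.20 in RPF. CHLG had 83.3, 86.9 and 103 CPM in RPF in high light, against 88.6, 64.0 and 83.5 CPM in low light.

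The heme and bilin branch was the least read of the 5 branches. Its 4 genes summed to 109 ± 6.47 CPM in RPF in high light and 119 ± 13.7 CPM in RPF in low light, against 2487 ± 660 and 2664 ± 757 CPM for the magnesium branch under the same lights (SD, n = 3). HO1, the heme oxygenase that opens the ring, had 28.1, 26.8 and 47.0 CPM in RPF in high light, against 46.5, 35.7 and 52.8 CPM in low light. Its high-light value was the lower for every number. The log2 change of -0.44 (interval -1.04 to 0.17) had the smallest p in RPF, with an adjusted p of 1.00 in edgeR. With the block, the interval was -0.86 to -0.03 (adjusted p = 0.431 in edgeR). In total RNA HO1 had 32.7, 26.3 and 32.0 CPM in high light, against 35.6, 24.7 and 31.4 CPM in low light.

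FC1 and FC2 encode ferrochelatase, which inserts iron. FC1 had 21.1, 21.4 and 24.5 CPM in RPF in high light, against 26.3, 34.9 and 15.7 CPM in low light. Its counts share 126 bases with an overlapping gene on the same strand, so part of them may belong to that gene. FC2 had 50.3, 64.3 and 32.3 CPM in RPF in high light, against 49.6, 48.0 and 30.0 CPM in low light. HY2, the phytochromobilin synthase, rested on 7, 6 and 4 counts in RPF in high light, against 21, 3 and 9 counts in low light, too few for a statement on light.

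Where copies of an enzyme are nearly alike, reads that match both copies may be split between them, and ratios of copies are uncertain for that reason. Of 20 ratios per kb of copies or partner subunits, 10 in each kind of library, 3 had light groups that did not overlap, and they were picked after the values were seen. By the same rule, 4.63% of all single genes lay wholly above and 4.47% wholly below in RPF. In total RNA these shares were 3.61% and 3.15%. The GSA1 to GSA2 ratio in RPF was 1.18 ± 0.13 in high light and 0.93 ± 0.09 in low light (SD, n = 3), and in total RNA it was 0.77 ± 0.15 in high light and 0.76 ± 0.03 in low light. The CHLI1 to CHLD ratio in RPF was 3.30 ± 0.34 in high light and 2.56 ± 0.21 in low light. The PORB to PORC ratio in total RNA was 6.06 ± 0.46 in high light and 8.55 ± 2.54 in low light. With 3 libraries against 3, an exact two-sided permutation test cannot go below 0.1, so none of these differences could pass.

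The next question was whether light changed footprints relative to transcripts, tested in 1 model over the 12 libraries as the difference between the light effect on RPF and the light effect on total RNA (the interaction). None of the 30 genes passed, and 0% of the 12789 genes tested were called by edgeR, with 0 by DESeq2. At an unadjusted p under 0.05 there were 0 of the 30 and 179 of all genes. The interaction was positive for 20 genes and negative for 10, beside 52.3% positive among all genes. Its median over the 30 was 0.18 on the log2 scale, beside 0.02 for all genes. With a single library left out the median ran from -0.10, without low-light total RNA library 3, to 0.31, without low-light RPF library 3. It was 0.03 without high-light RPF library 3, 0.04 without high-light total RNA library 2 and 0.19 with the replicate number as a block. All 5 genes of ALA synthesis were positive, with a branch median of 0.31, while 3 of the 4 heme and bilin genes were negative, with a branch median of -0.44. Of these 3 genes, HY2, the lowest of the 30 at -0.60, rests on few RPF counts. FC1 shares bases with another gene on its strand. The branch medians were not computed with single libraries left out. HO1 (-0.45, interval -1.21 to 0.30), CHLG (0.37, interval -0.31 to 1.05) and FC1 (-0.42, interval -1.25 to 0.40) had the smallest p, at 0.224 and above in edgeR before adjustment. Without the replicate block, the 95% interval reached beyond 2-fold for 18 of the 30 genes. A shift of that size lies within the error of their values in that fit. With the block, 26 of the 30 intervals lay within 2-fold, HEMD, FC1, HO1 and HY2 being the exceptions.

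The footprints were then set against total RNA within each light. The value compares the reads of a gene in RPF with its reads in total RNA, relative to the typical gene. Both kinds were counted over whole genes, without correction for the coding part of a transcript. Library preparation and aligner also differ between the kinds of library. What part any of these play in the values was not tested. In high light, none of the 30 genes passed the test, with 7.14% of 13845 genes called. The log2 ratio was positive for 20 genes and ran from -0.98 for HY2 to 1.18 for GUN4, and 6 of the 30 had an unadjusted p under 0.05 (GSA1, HEMC, HEMD, GUN4, CHLM and HY2), beside 23.4% of all genes. In low light none passed either, with 5.04% of 11756 genes called, 13 genes were positive, and 3 of the 30 had an unadjusted p under 0.05 (FLU, HEMC and GUN4), beside 22.3% of all genes.

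GUN4 (AT3G59400, chromosome 3, bases 21948717 to 21949710, minus strand) had the highest ratio under both lights. Its CPM in each library stand with the magnesium branch above, and since CPM were scaled within each kind of library, the fitted ratio is the measure used. The log2 ratio was 1.18 in high light (interval 0.26 to 2.11, adjusted p = 0.121 in edgeR) and 0.91 in low light (interval 0.01 to 1.80, adjusted p = 0.220). With the replicate number as a block GUN4 passed under both lights, at 1.20 in high light (adjusted p = 0.0015 in edgeR) and 0.83 in low light (adjusted p = 0.0307), where 11.4% and 12.4% of all genes were called. Without RPF library 1 it also passed, at 1.52 in high light (adjusted p = 0.0303 in edgeR) and 1.31 in low light (adjusted p = 0.0499). With any of the other 5 libraries of a light left out GUN4 did not pass, at 0.80 to 1.42 in high light and 0.51 to 1.05 in low light, and DESeq2 did not call it (adjusted p = 0.0825 in high light and 0.189 in low light). GSA1 passed with the block in high light, at 0.77 (adjusted p = 0.0307 in edgeR), against 0.76 and an adjusted p of 0.0724 without it. In low light GSA1 was at 0.36 (adjusted p = 0.504 in edgeR), and the difference between the lights is the interaction above, 0.35 (interval -0.42 to 1.13) for GSA1 and 0.24 (interval -1.23 to 1.71) for GUN4.

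HEMC was at 0.69 in high light (adjusted p = 0.0955 in edgeR) and 0.66 in low light (adjusted p = 0.204). DESeq2 called it in high light, at 0.68 (adjusted p = 0.0379). HEMD was at 0.96 in high light (adjusted p = 0.110 in edgeR), on 16 to 17 counts per RPF library. On the other side, FLU was at -0.36 in high light and -0.71 in low light (adjusted p = 0.107 in edgeR for low light).

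**Figure D3:**
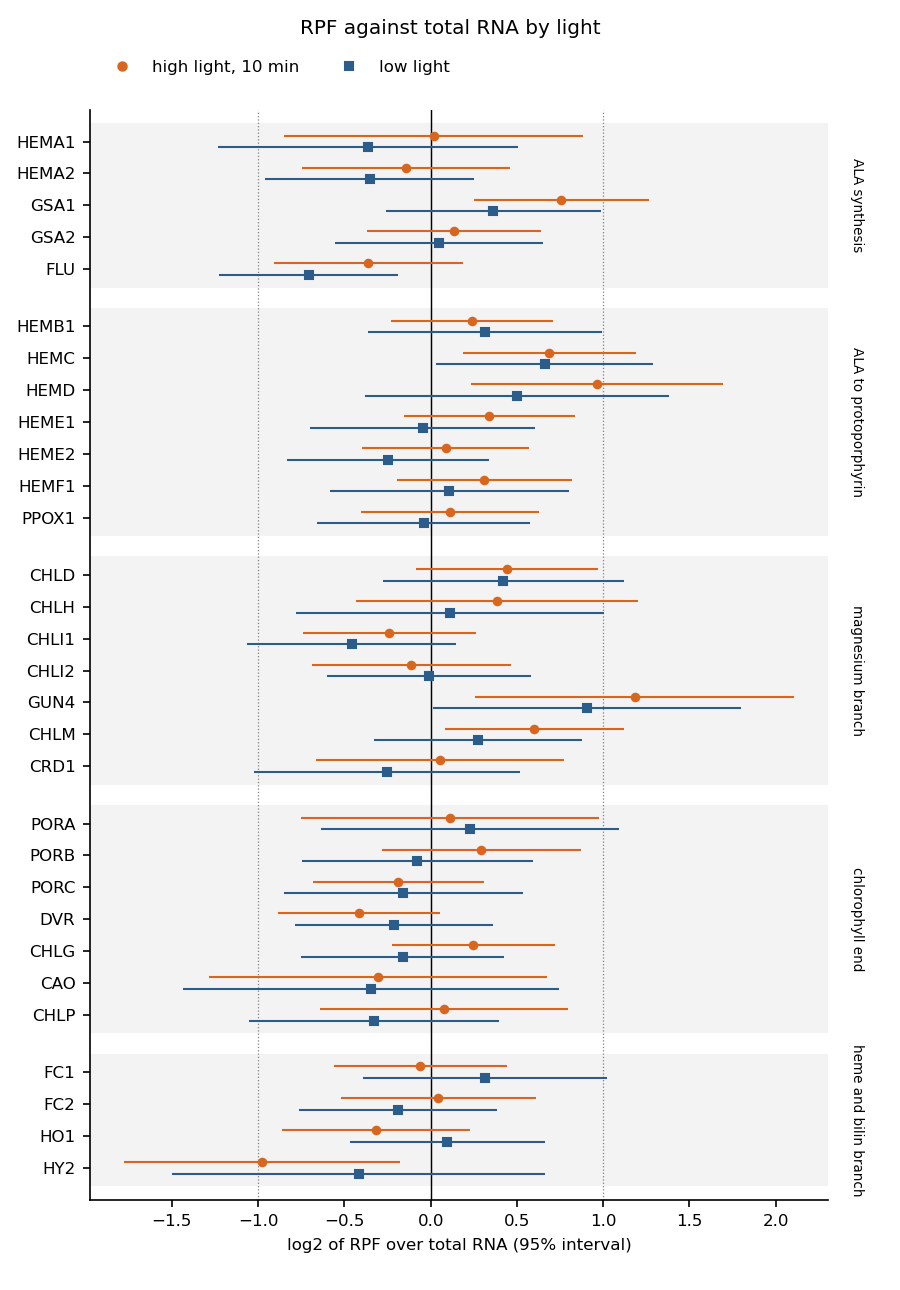
Log2 of RPF over total RNA with its 95% interval for each gene, high light (circles) above low light (squares); 0 is the typical gene and dotted lines mark 2-fold either way. GUN4 lies furthest right under both lights, at 1.18 in high light and 0.91 in low light, and HY2 furthest left in high light.

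The numbered libraries differed from each other within a light. A test of the number terms, in the model that holds light and number together, was added after the values had been seen. In that model the range between the numbers was above the size of the light change for 27 of 29 genes in RPF, CHLD and CHLI1 being the exceptions, and for 28 of 30 in total RNA, HEMA2 and HEMD being the exceptions. A range over 3 numbers is wider than a single difference by its construction, and the comparison is a description without a test. In RPF it called 9 of 29 genes (HEMA1, CHLH, CHLI2, GUN4, CRD1, PORA, CAO, CHLP and FC2), with 15.7% of all genes called by edgeR. In total RNA it called 9 of 30 (HEMA1, GSA2, HEMF1, CHLD, CHLH, GUN4, CRD1, PORA and CAO), with 11.4% of all genes called. The 6 genes called in both are HEMA1, the first enzyme, CHLH and GUN4 of the chelatase step, CRD1 of the cyclase, PORA and CAO. Number 3 was above number 1 for all 6 in both kinds of library. The share of all genes called in both kinds was not computed, so this count has no background.

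For CAO number 3 was above number 1 by 1.72 on the log2 scale in RPF (adjusted p = 2.54e-12 in edgeR) and by 2.01 in total RNA (adjusted p = 0.0003). GUN4 differed by 1.74 in RPF and 1.40 in total RNA, PORA by 1.30 and 1.51, and HEMA1 by 1.18 and 1.57. For CHLH the difference was 0.90 in RPF and 1.12 in total RNA, and for CRD1 it was 0.78 and 1.07. Because RPF libraries 1 stand apart in their protein-coding share, numbers 3 and 2 are set side by side as well. Number 3 exceeded number 2 in RPF by 0.76 for CAO, 0.32 for GUN4, 0.65 for PORA, 0.45 for HEMA1, 0.62 for CHLH and 0.49 for CRD1. In total RNA, where no library stood apart in that share, number 3 exceeded number 2 by 1.13 for CAO, 0.23 for GUN4, 0.77 for PORA, 0.91 for HEMA1, 1.44 for CHLH and 0.74 for CRD1. HEMA1, CHLH, GUN4 and CAO were called in both kinds of library in every one of the 11 settings tried, and the share of all genes called so was not computed. CHLI1, by contrast, differed by 0.04 between numbers 3 and 1 in RPF, and PORB by 0.44. The part that depth, the experiment a number stands for or the number 1 libraries play in these differences was not tested.

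**Figure D4:**
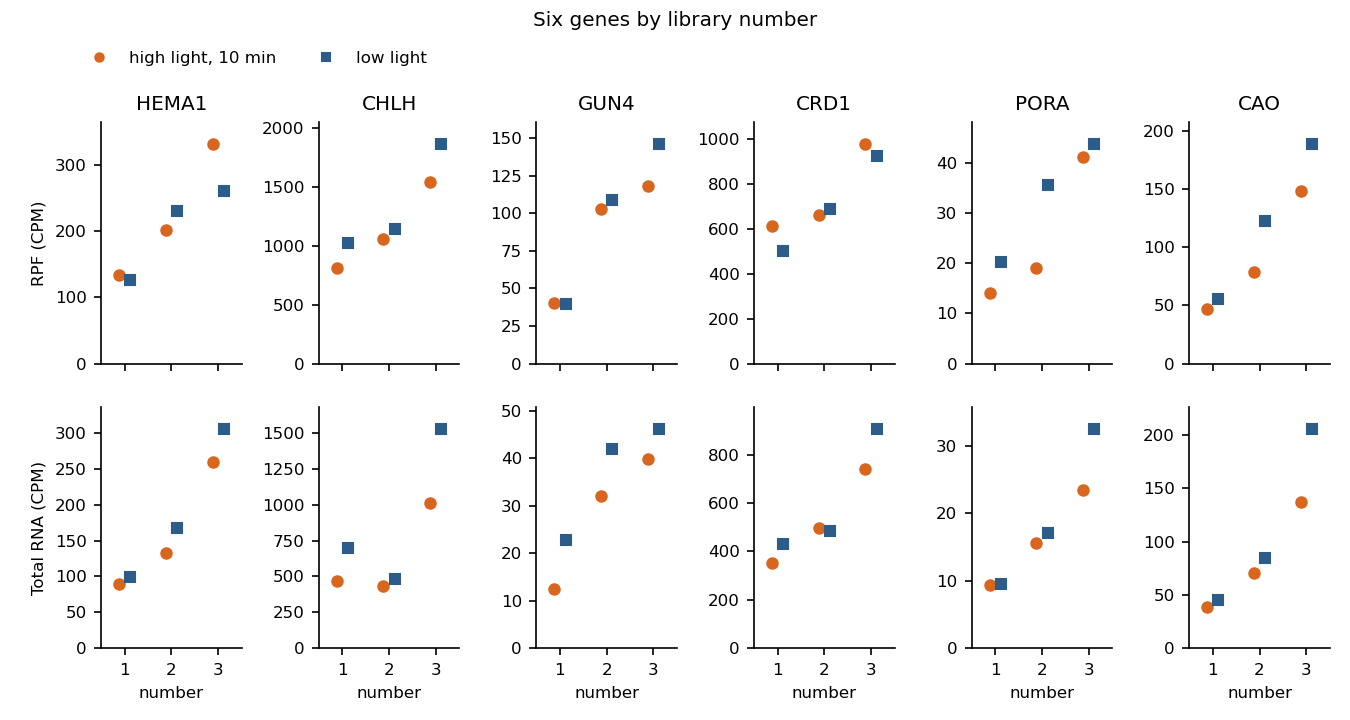
CPM in RPF (top row) and total RNA (bottom row) of the 6 genes called for differences between numbers in both, by library number; circles are high light, squares low light, and each vertical axis starts at 0. Number 3 lies above number 1 under both lights in every panel.

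Of 29 other genes of the pathway, which comprise further isoforms, the siroheme branch, auxiliary factors and chlorophyll breakdown, 22 were tested for light in RPF and 25 in total RNA, and 0 were called in either by edgeR. CLH1, a chlorophyllase, had the smallest p in both: it had 22.7, 20.8 and 17.6 CPM in RPF in high light, against 5.70, 16.0 and 16.3 CPM in low light. In total RNA it had 25.4, 17.1 and 11.2 CPM in high light, against 6.01, 10.4 and 9.11 CPM in low light. The CLH1 groups do not overlap in either kind of library. By that rule 4.63% of all genes lay wholly above in RPF and 3.61% in total RNA. The log2 change of CLH1 was 0.75 in RPF (interval -0.10 to 1.59, unadjusted p = 0.0772 in edgeR). In total RNA it was 1.02 (unadjusted p = 0.00788 and adjusted p = 0.959 in edgeR). UPM1, the methyltransferase that opens the siroheme branch, followed in RPF at -0.55, and SIRB, the ferrochelatase of that branch, at -0.67. HO2, a heme oxygenase-like gene, and UPM1 followed in total RNA at -0.36 and -0.39. The interaction called 0 of 24, with the smallest p for HO2 (0.70), SIRB (-0.69) and LIL3:2 (0.38).

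In footprints against total RNA the same list had 1 gene higher and 0 lower of 25 in high light, beside 7.14% of all genes called, and 0 of 24 in low light, beside 5.04%. With the block it had 3 of 25 in high light, beside 11.4% of all genes, and 2 of 24 in low light, beside 12.4%, so that these counts lie near or below the share over all genes. The gene was LCAA, a cyclase subunit and partner of CRD1, with 88.8, 78.0 and 93.1 CPM in RPF and 30.1, 35.6 and 21.9 CPM in total RNA in high light, a log2 ratio of 1.11 (adjusted p = 0.0177 in edgeR). In low light LCAA was at 0.84 (adjusted p = 0.0626 in edgeR) and passed with the replicate block (0.83, adjusted p = 0.0197). With the block, PAO, the oxygenase that opens the ring in chlorophyll breakdown, passed in high light (0.76, adjusted p = 0.0332 in edgeR) and in low light (0.74, adjusted p = 0.0475), and GUN1, a plastid protein of retrograde signalling, passed in high light (0.96, adjusted p = 0.017). HEMA3 and HEMB2, further copies of the first enzymes, had 0 counts in all 6 RPF libraries.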

How the data were processed

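Whole-rosette RPF and total RNA libraries were deposited as raw counts per gene, 1 file per library. Per the file headers, the authors counted reads over whole genes with featureCounts 1.5.0-p1 in paired mode, stranded, after alignment with Bowtie2 (RPF) or subjunc (total RNA); the submitters' processing notes name TAIR10, cutadapt 1.9.1, FastQC 0.11.5, Bowtie2 2.2.9 and Subread 1.4.5. Coordinates are those of the deposited files. A RefSeq gene table gave names and types, and 26789 protein-coding genes were analysed. Each comparison used edgeR 4.0.16 (R 4.3.3), filterByExpr, TMM and the quasi-likelihood test on the counts of its own libraries, with adjusted p under 0.05 called. Alternatives were DESeq2 1.42.0, limma-voom 3.58.1, a replicate block, other scalings and gene sets, no filter, and leaving out libraries. Same-numbered libraries deviated together (correlations 0.294 to 0.638 between lights and 0.137 to 0.312 between kinds of library, over 10727 genes), so the numbers pair the samples. The scripts were run on simulated counts with known changes but without differences between numbers, and the share of changes recovered is not given here. The labels call the replicates biological, and no 2 were alike within sampling noise. The members and gene lists were chosen with earlier results of these data known. Genes were named by rule: those called, the 3 smallest p of each comparison, and the most and least read gene of each branch. HEME1 and HEME2 fall outside this rule, and their values were given because they were higher in 3 of 3 pairs in RPF. Coding lengths, promoters and proteins were not used here.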

Additional observations from a re-analysis of the deposited data

How the results depend on the processing

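The members called for light were 0 in RPF, 0 in total RNA and 0 in the interaction under every alternative run, which leaves no call that could change sign. For RPF against total RNA, members called in high light were 0, and 2 with the replicate block (GUN4 and GSA1), 1 with DESeq2 (HEMC), 1 with no filter (GUN4) and 0 to 1 over the left-out replicates; in low light they were 0, and 1 with the block (GUN4), 1 with no filter (GUN4) and 0 to 1 over the left-out replicates. Without RPF replicate 1 of either light the 1 gene was GUN4. All genes called for light in RPF were 24, and 196 with the replicate block, 38 with DESeq2, 46 with no filter, 5 with all genes of the files in the fit, 55 with the block and without number 1, and 7 to 21 over the left-out replicates. In total RNA they were 37, and 130 with the block, 64 with DESeq2, 58 with no filter, 22 without number 1, 125 with the block and without number 1, and 14 to 38 over the left-out replicates, lowest without low-light replicate 3. The interaction called 0 genes, and 2 with no filter. RPF against total RNA called 988 genes in high light, with 1575 under the block, 1586 with no filter and 241 to 1033 over the left-out replicates; in low light it called 592, with 1462 under the block, 1379 with no filter and 109 to 772 over the left-out replicates. Differences between numbers, an added test, called 1689 genes in RPF, 494 with DESeq2 and 737 to 1612 over the left-out replicates, with 5 to 8 members; in total RNA they called 1789, 3083 with no filter, 734 with DESeq2 and 920 to 2953 over the left-out replicates, with 14 members with no filter and 5 to 13 over the left-out replicates. Beyond the fewer libraries or genes fitted, the cause was not tested. The summed level of the 30 genes was 5596 CPM in RPF in high light and 5757 in RPF in low light, 3575 in total RNA in high light and 4348 in total RNA in low light; per 1000000 nuclear protein-coding counts it was 10879, 11624, 10617 and 12344 in the same order, because plastid counts leave the denominator. Over 15 alternatives each, the sign of the light change differed from the main one in 36 of 435 values in RPF and 45 of 450 in total RNA. These values came from 15 genes in RPF and 20 in total RNA. The largest main change among them was -0.43 for CAO in RPF and -0.50 for CHLH in total RNA. Under another scaling alone the sign differed for HEMD and PORC in RPF and HO1 and HEMB1 in total RNA, all with changes near 0. Depth limits the scarce genes: HY2 and HEMD rest on few counts in RPF.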
